A study of Mus musculus with 36 samples.

Results

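The microRNA mmu-miR-122-5p was followed through the ventral and lateral lobes of the prostate in mice with 3 forms of Elac2, the gene of the ribonuclease that trims the 3′ end of precursor tRNAs. It is 1 of the 1963 miRNAs listed in the deposited tables, and it was selected on its levels over these same groups. Its levels and their differences are therefore a description, given with no test. The libraries came from male mice, strain given as C56NL/6N, that were WT, KO (homozygous, with exon 8 removed in the prostate alone by Cre under the Pb promoter) or A537T (homozygous for a threonine at that position in every tissue). Each form was studied without a transgene or with 1 copy of TRAMP, in which the Pb promoter drives SV40 T antigens in the prostate (WT-TRAMP, KO-TRAMP and A537T-TRAMP), and at an age of 10 or 30 weeks, with 3 libraries in each of the 12 groups.

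miR-122-5p is the dominant miRNA of hepatocytes, where it represses many transcripts of lipid and iron metabolism and is needed for the differentiated state of the liver. It is also released from hepatocytes and circulates in plasma, where it serves as a marker of liver injury. In most other tissues it is a minor species. Because whole lobes were sequenced, fewer cells of a type and less RNA per cell cannot be told apart in any value below, and the A537T change is present in the liver as well as in the prostate while the KO deletion is not.

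miRNAs that hepatocytes are also rich in were taken as the list to set beside miR-122-5p. Their mature sequences (RefSeq, GRCm38.p6) are shown because the comparison turns on whether they moved with it. The capitals mark the seed, bases 2 to 8, which pairs with target transcripts, and none of these 4 seeds is shared by another of them.
miR-148a-3p: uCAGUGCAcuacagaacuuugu
miR-192-5p: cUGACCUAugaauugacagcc
miR-194-5p: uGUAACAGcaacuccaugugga
miR-802-5p: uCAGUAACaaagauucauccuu
miR-148a-3p is abundant in many epithelia as well as in liver. miR-192-5p and miR-194-5p are made together from paired genes and mark liver, gut and kidney. miR-802-5p is largely restricted to liver, pancreas and kidney.

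The depth of the libraries set how well so low a miRNA was measured. Totals ran from 4544257 to 21870210 miRNA reads in 35 libraries, and library 35, from A537T mice of 10 weeks, held 655455. A miRNA with 0 reads could have been present at up to 4.58 RPM (reads per 1000000 reads) in library 35 and at up to 0.137 to 0.660 RPM in the others, taking 3 reads as the limit that a count of 0 allows. The columns of the tables name 1 flow cell for all libraries. They carry a library number and no group, so groups were read from which tables a library occurs in, and no miRNA value checks them. The miRNAs of epithelium made up 3.81% to 10.0% of the reads, and all 6 of them were read in every library. Those of skeletal muscle were more variable. At 10 weeks without TRAMP they took 9.71% to 30.6% of WT reads, 3.72% to 13.7% of A537T reads and 0.734% to 6.49% of KO reads, and elsewhere at most 3.09%. The study's methods describe the replicates of a group as biological, that is, as separate mice.

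miR-122-5p was read in 36 of 36 libraries, with 2399 reads among 475438643. Its level ran from 0.818 RPM in WT library 30 at 10 weeks to 45.2 RPM in A537T-TRAMP library 4 at 10 weeks, with a median of 2.71 RPM over all libraries. By reads it ranked between 178 and 494 within a library. Library 4 alone held 23.97% of its reads. Among the 514 miRNAs with a mean of at least 1 RPM, its spread within groups ranked 103, with an SD of 0.83 on the log2 scale against a median of 0.48. This spread was wider than the counting error of reads in part of the groups. In 13 of 36 pairs of libraries of the same group the 95% Wilson intervals lay apart. The intervals describe the counting of reads alone. Reads copied by PCR were not traced to single molecules, so the intervals may be too narrow for the molecules sampled.

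**Figure D1:**
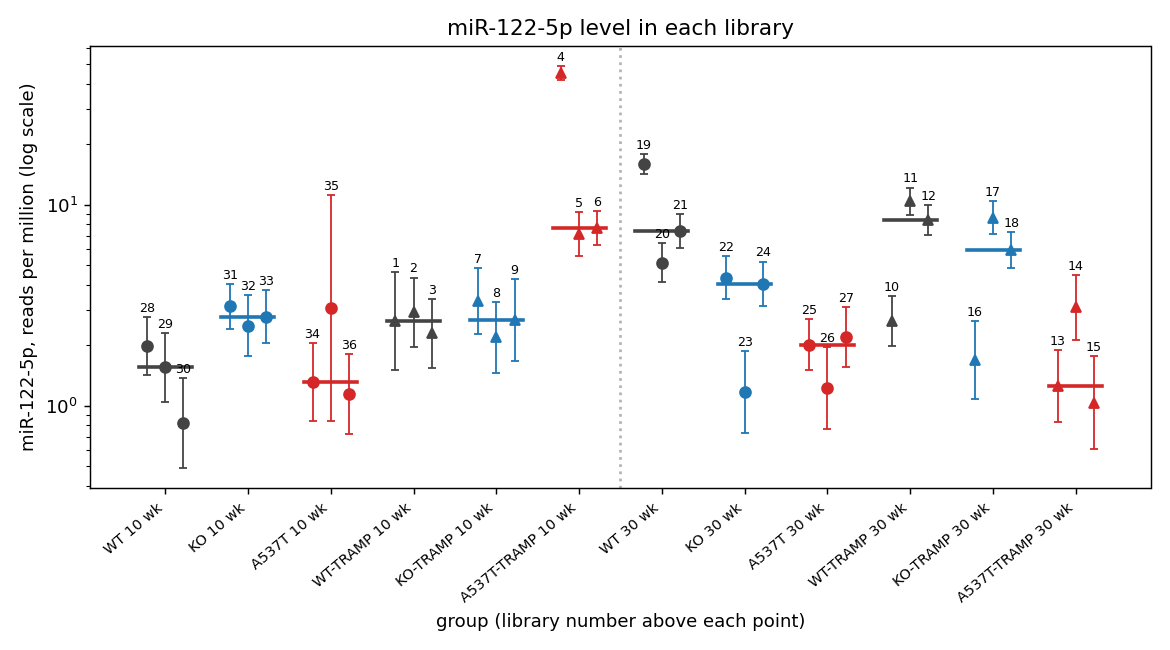
Level of miR-122-5p in RPM (vertical, log scale) in each of the 36 libraries, by group (horizontal). Points are libraries, vertical bars are 95% Wilson intervals and horizontal lines are group medians. Circles lack TRAMP and triangles carry it. Library 4 stands at 45.2 RPM, and the 3 WT libraries of 30 weeks lie above the 3 of 10 weeks.

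At 10 weeks without TRAMP the level was low in every line. In WT it was 1.99, 1.55 and 0.82 RPM in libraries 28, 29 and 30, from 35, 24 and 14 reads. In KO it was 3.12, 2.50 and 2.77 RPM in libraries 31, 32 and 33, and all of these lay above the WT libraries. The log2 difference was 0.98 ± 0.36 (SE, n = 3 in each group), a 1.97-fold higher level in KO, where the median of all miRNAs compared was 0.24. Of the 513 miRNAs compared there, 15.2% had all KO libraries above all WT libraries. The muscle miRNAs were lower in KO than in WT in those same libraries. With that list taken out of the totals the difference was 0.71, and the KO libraries still lay above all WT libraries. The share of all miRNAs placed likewise was not counted on those totals.

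In A537T at 10 weeks miR-122-5p was 1.31, 3.05 and 1.14 RPM in libraries 34, 35 and 36. The highest of these rests on 2 reads in the shallow library 35, with an interval of 0.837 to 11.1 RPM. The A537T and WT libraries overlapped, with a log2 difference of 0.27 ± 0.55 (SE, n = 3 in each group), which was -0.15 without library 35.

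On the TRAMP background at 10 weeks the level stood apart in A537T-TRAMP. WT-TRAMP libraries 1, 2 and 3 held 2.64, 2.92 and 2.29 RPM and KO-TRAMP libraries 7, 8 and 9 held 3.32, 2.19 and 2.66 RPM, so these groups overlapped, with a log2 difference of 0.04 ± 0.19 (SE, n = 3 in each group). A537T-TRAMP libraries 4, 5 and 6 held 45.2, 7.15 and 7.68 RPM, from 575, 59 and 100 reads. All of them lay above every WT-TRAMP and KO-TRAMP library, and library 4 lay far above libraries 5 and 6. The share of all miRNAs that lay likewise above KO-TRAMP was not counted. Against WT-TRAMP the log2 difference was 2.34 ± 0.87 (SE, n = 3 in each group), a 5.06-fold higher level, which was 2.78-fold without library 4. The median of all miRNAs was -0.21 in that comparison, and 0.609% of the 493 compared had all A537T-TRAMP libraries above all WT-TRAMP libraries.

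At 30 weeks without TRAMP WT was the highest line. WT libraries 19, 20 and 21 held 15.95, 5.16 and 7.40 RPM, from 272, 75 and 101 reads. KO libraries 22, 23 and 24 held 4.33, 1.17 and 4.03 RPM, and A537T libraries 25, 26 and 27 held 2.01, 1.23 and 2.19 RPM. All libraries of both mutant lines lay below the lowest WT library.

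For KO at 30 weeks the log2 difference was -1.59 ± 0.75 (SE, n = 3 in each group), a 3.01-fold lower level, or 2.01-fold without library 23. The groups were close at their edges, and on the size factor scale of the authors they overlapped. Of the 495 miRNAs compared, 14.1% had all KO libraries below all WT libraries, and the median of all was -0.23. For A537T the log2 difference was -2.21 ± 0.53 (SE, n = 3 in each group), a 4.62-fold lower level with a median of all miRNAs of -0.13. There 3.63% of the 496 miRNAs compared had all A537T libraries below all WT libraries. Both comparisons share the WT libraries, so they are not independent of each other.

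On the TRAMP background at 30 weeks the levels were spread widely. WT-TRAMP libraries 10, 11 and 12 held 2.63, 10.4 and 8.40 RPM, and library 10 lay well below the others. KO-TRAMP libraries 16, 17 and 18 held 1.69, 8.60 and 5.95 RPM, which overlapped with WT-TRAMP at a log2 difference of -0.46 ± 0.92 (SE, n = 3 in each group). Single libraries set its sign and size, since it was 0.22 without library 16 and -1.05 without library 10. A537T-TRAMP libraries 13, 14 and 15 held 1.25, 3.08 and 1.04 RPM.

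For A537T-TRAMP against WT-TRAMP at 30 weeks the log2 difference was -1.88 ± 0.76 (SE, n = 3 in each group), with overlap between A537T-TRAMP library 14 and WT-TRAMP library 10. It was -2.48 without library 10. On the size factor scale of the authors the same libraries did not overlap. The overlap of these groups thus depended on the scaling.

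**Figure D2:**
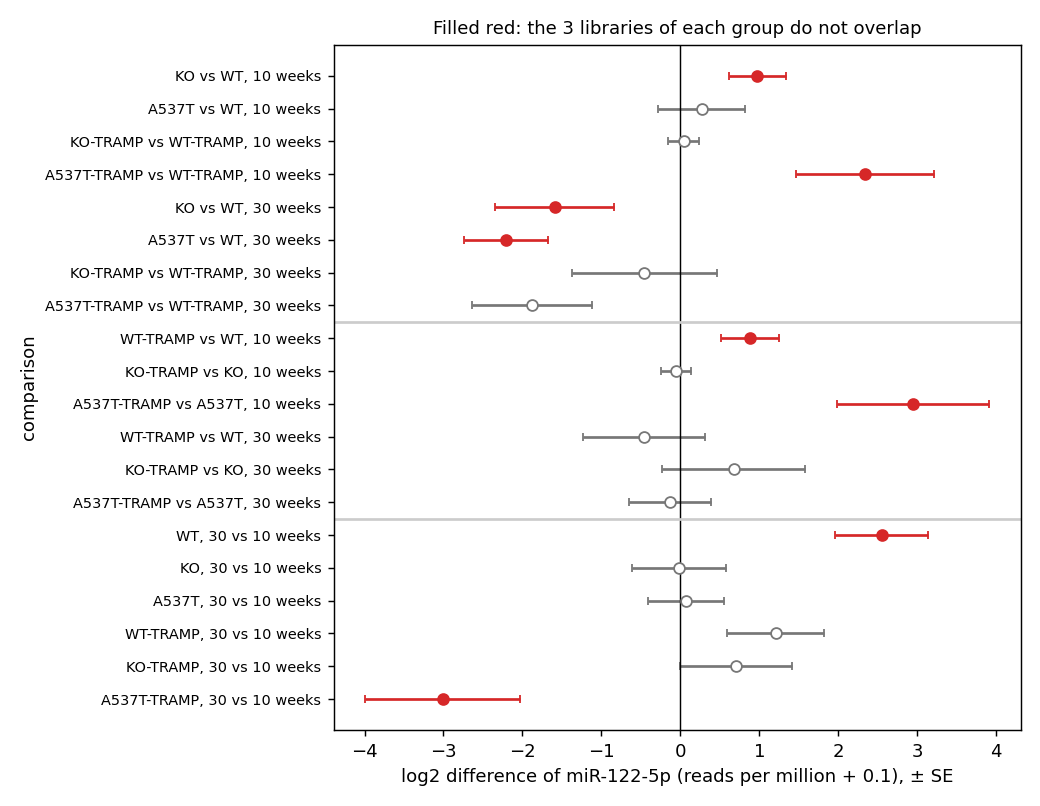
Log2 difference of miR-122-5p (horizontal, RPM + 0.1, with SE) for the 8 mutant, 6 TRAMP and 6 age comparisons (vertical). Filled red points mark the 8 comparisons in which the 3 libraries of each group do not overlap, 5 of them up and 3 down, and open grey points the 12 that overlap.

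The TRAMP comparisons set each transgenic group beside the same Elac2 form without the transgene. At 10 weeks all WT-TRAMP libraries lay above all WT libraries, with a log2 difference of 0.88 ± 0.37 (SE, n = 3 in each group), and so did 25% of the 508 miRNAs compared. The skeletal muscle miRNAs took 9.71% to 30.6% of the WT reads there and 0.320% to 0.627% of the WT-TRAMP reads. With that list out of the totals the difference was 0.59, and the groups still did not overlap. Their nearest libraries then held 2.30 RPM in WT-TRAMP and 2.20 RPM in WT. The share of all miRNAs was not counted on those totals. All A537T-TRAMP libraries lay above all A537T libraries, by 2.95 ± 0.96 (SE, n = 3 in each group) on the log2 scale. This is a 7.74-fold higher level, or 4.25-fold without library 4, and 16% of the 512 miRNAs compared were placed likewise. Without the muscle list, which took 3.72% to 13.7% of the A537T reads and 0.218% to 0.903% of the A537T-TRAMP reads, the difference was 2.84. KO-TRAMP and KO overlapped at 10 weeks, at -0.05 ± 0.19 (SE, n = 3 in each group). At 30 weeks the groups overlapped in WT, KO and A537T alike, with log2 differences of -0.46 ± 0.77, 0.67 ± 0.91 and -0.13 ± 0.52 (SE, n = 3 in each group). In WT the difference was 0.14 without library 10. In KO it was 1.35 without library 16 and 0.09 without library 23.

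Age separated the groups in 2 of the 6 lines, in opposite directions. In WT all libraries of 30 weeks lay above all of 10 weeks, with a log2 difference of 2.55 ± 0.59 (SE, n = 3 in each group), a 5.85-fold higher level, and 17% of the 511 miRNAs compared did the same. The skeletal muscle miRNAs of these WT libraries took 9.71% to 30.6% of reads at 10 weeks and 0.388% to 0.448% at 30 weeks. With that list out of the totals the difference was 2.25, and the groups still did not overlap, though the share of all miRNAs was not counted there. In A537T-TRAMP all libraries of 30 weeks lay below all of 10 weeks, at -3.01 ± 0.98 (SE, n = 3 in each group), an 8.06-fold lower level, or 4.43-fold without library 4. In that comparison 4.03% of the 496 miRNAs compared had all older libraries below all younger ones. In KO and A537T the libraries of both ages overlapped, with log2 differences of -0.02 ± 0.59 and 0.07 ± 0.49 (SE, n = 3 in each group). For KO it was 0.57 without library 23. WT-TRAMP and KO-TRAMP were higher on average at 30 weeks, by 1.21 ± 0.61 and 0.71 ± 0.71 (SE, n = 3 in each group), with overlap. They were 1.80 without library 10 and 1.38 without library 16.

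Ordered by median, WT-TRAMP at 30 weeks was the highest group, at 8.40 RPM. A537T-TRAMP at 10 weeks followed at 7.68, WT at 30 weeks at 7.40, KO-TRAMP at 30 weeks at 5.95 and KO at 30 weeks at 4.03 RPM. KO at 10 weeks (2.77), KO-TRAMP at 10 weeks (2.66), WT-TRAMP at 10 weeks (2.64) and A537T at 30 weeks (2.01 RPM) came next. The lowest were WT at 10 weeks (1.55), A537T at 10 weeks (1.31) and A537T-TRAMP at 30 weeks (1.25 RPM). Of the 11 neighbouring pairs in this order, 10 had overlapping ranges, so most steps were within the spread of the libraries. The exception was WT-TRAMP at 10 weeks over A537T at 30 weeks. Their nearest libraries, 3 and 27, held 2.29 and 2.19 RPM, with 95% Wilson intervals that overlapped. The share of all miRNAs placed likewise was not counted.

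Little else from the miR-122 locus was read. Mir122 lies on chromosome 18 at 65248861 to 65248926 (GRCm38, GENCODE M21, plus strand), where it overlaps an exon of the lincRNA AC157910.3, and Mir122b lies within it at 65248863 to 65248921 (RefSeq, GRCm38.p6). The other arm of the hairpin, miR-122-3p, had 3 reads in 2 libraries, 1 in library 4 and 2 in library 30. miR-122b-5p had 75 reads in 21 libraries, with at most 17 in a library, in WT library 30, where miR-122-5p was at its lowest. miR-122b-3p had 0 reads. How strand was used in counting is not given in the sources used here, so the reads of overlapping hairpins are uncertain.

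The liver-enriched list held 5 miRNAs, and its members did not share the range of miR-122-5p. miR-148a-3p ran from 73986 to 313900 RPM and made up most of the list. miR-192-5p stayed between 296 and 465 RPM and miR-194-5p between 127 and 282 RPM over all libraries. These ranges are narrow beside the 55.2-fold range of miR-122-5p. That range runs from 14 reads in library 30 to 575 reads in library 4, and the next highest library held 15.95 RPM. miR-192-5p and miR-194-5p had 170868 and 85060 reads over all libraries, so counting error widens the range of miR-122-5p more than theirs. miR-802-5p had 14 reads in 7 libraries, and miR-122-3p, the fifth member, had the 3 reads given above. In library 4, where miR-122-5p was highest, miR-802-5p had 0 reads, as in most libraries. A count of 0 there allows up to 0.236 RPM, and the highest miR-802-5p level in any library was 0.254 RPM. This count therefore says little about library 4.

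In limma's test on log2(normalised count + 1), 3 list members reached a mean normalised count of 10, and 0 of them passed a Benjamini-Hochberg adjusted p of 0.05 in any of the 8 mutant comparisons. The background was 0% of the 464 to 561 miRNAs tested in each, with 15 to 104 at an unadjusted p under 0.05. Since limma called no miRNA at all, the count of 0 cannot show whether the list moved with miR-122-5p. edgeR's quasi-likelihood test called 0 miRNAs in all 8, and DESeq2's Wald test called 0 to 52 in a comparison, none of them a list member. Over the 24 values of the list, 3 had an unadjusted limma p under 0.05, and the smallest limma adjusted p was 0.255. These were all for KO-TRAMP or A537T-TRAMP at 30 weeks. There 104 of 553 and 89 of 535 of all miRNAs had such a p, so the count is not particular to the list. Log2 fold changes ran from -0.77 to 0.39 for miR-148a-3p, from -0.37 to 0.34 for miR-192-5p and from -0.36 to 0.52 for miR-194-5p. For A537T-TRAMP at 10 weeks, where all miR-122-5p libraries lay above the controls, they were 0.39 ± 0.24, 0.34 ± 0.18 and 0.21 ± 0.17 (SE), with limma adjusted p of 0.796 for each. Single libraries decided this count. Without KO-TRAMP library 16 miR-148a-3p and miR-194-5p passed at 30 weeks, and without WT library 28 miR-148a-3p passed for KO at 10 weeks. How many of all miRNAs passed without those libraries was not counted, so these calls cannot be read as particular to the list. With all libraries, 104 of 553 and 97 of 561 miRNAs had an unadjusted limma p under 0.05 in those comparisons.

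**Figure D3:**
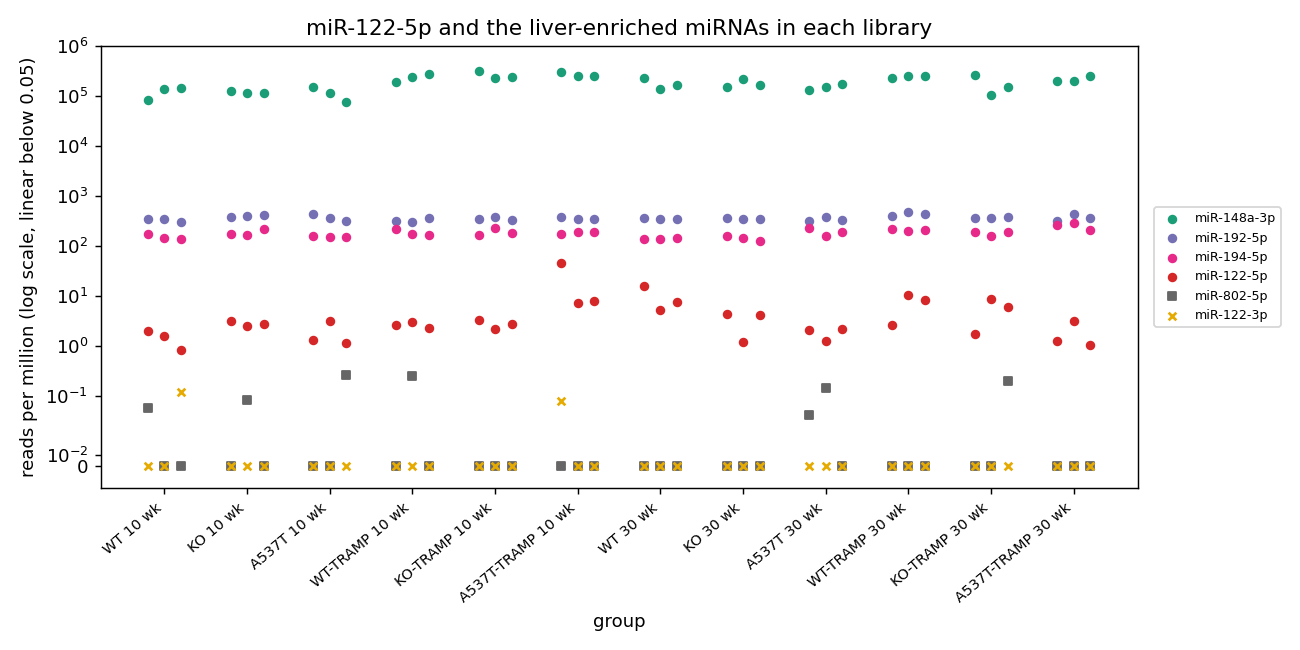
RPM (vertical, log scale, linear below 0.05) of miR-122-5p and of the 5 liver-enriched miRNAs in each library, by group (horizontal). miR-192-5p and miR-194-5p form level bands, and miR-802-5p and miR-122-3p lie at 0 in most libraries. miR-122-5p varies 55.2-fold, from 14 reads in library 30 to 575 in library 4, with more counting error than those bands.

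Marker lists were then set beside miR-122-5p among libraries of the same group. Deviations of log2 RPM from the group mean were correlated over 36 libraries with 8 lists and with library depth, 9 relations in all. Since miR-122-5p was selected on the same values, these are given as a description with no p, and the libraries of a group share its mean. The largest r was with the neuroendocrine and neural list, with Pearson's r of 0.40 and Spearman's rho of 0.34, and r was 0.21 without the 2 libraries farthest from the median of that list. For the liver-enriched list r was -0.18 and rho was -0.10, and r was 0.06 without the 2 farthest libraries. The sum of that list is mostly miR-148a-3p, and its members differed. Taken singly within groups, rho was -0.10 for miR-148a-3p and -0.10 for miR-194-5p. For miR-192-5p it was 0.44, which ranked 8 among the miRNAs with a mean of at least 1 RPM. For red cells, which mark blood in the tissue, r was -0.16 and rho was -0.16, and r was -0.15 without the 2 farthest. Without library 4 alone, which holds the most miR-122-5p reads, r for red cells was -0.0025. For library depth r was -0.21 and rho was -0.11, and r was -0.02 without the 2 farthest. The part of each list in the level of miR-122-5p was not tested.

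The miRNAs whose RPM ordered the 36 libraries most like miR-122-5p did so loosely. The 6 highest Spearman rho values are described here among the 513 other miRNAs with a mean of at least 1 RPM, with no p, since the points share groups and depth. They were miR-182-5p (0.43), miR-342-5p (0.41), miR-1947-5p (0.40), miR-200a-5p (0.40), miR-425-5p (0.39) and miR-1945 (0.37). Of these, miR-1947-5p and miR-1945 were low, with means of 3.05 and 1.20 RPM, so their order also carries counting error. The 2 lowest were miR-450b-3p (-0.44) and miR-299a-5p (-0.43). The top sequences (RefSeq, GRCm38.p6) are shown because their seeds, in capitals, all differ from each other.
miR-182-5p: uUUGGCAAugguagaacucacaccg
miR-342-5p: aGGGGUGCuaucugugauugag
miR-1947-5p: aGGACGAGcuagcugagugcug
miR-200a-5p: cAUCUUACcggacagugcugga
miR-425-5p: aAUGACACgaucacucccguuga
miR-1945: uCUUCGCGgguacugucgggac
Most of these names changed when groups were handled otherwise. miR-425-5p was again among the 6 highest over the 12 group means (0.57), and miR-1947-5p over deviations within groups (0.52). Over the 12 group means the highest rho was that of miR-8112 (0.66), which ranked 26 over the libraries, and over deviations within groups it was that of miR-32-5p (0.64), which ranked 33. No miRNA followed miR-122-5p closely by this measure.

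**Figure D4:**
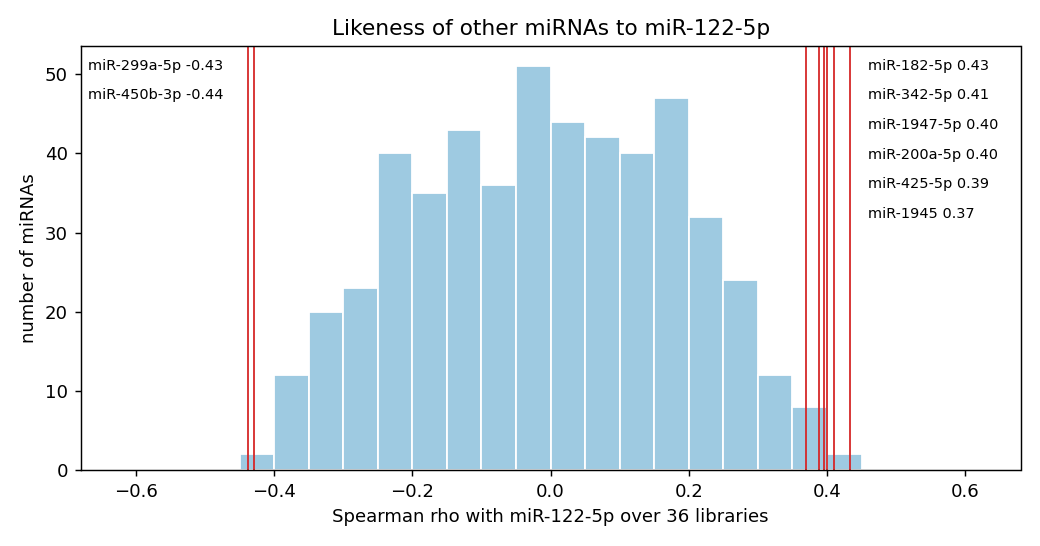
Number of miRNAs (vertical) by Spearman rho with miR-122-5p over 36 libraries (horizontal), for the 513 other miRNAs with a mean of at least 1 RPM. Red lines mark the 6 highest, from 0.37 to 0.43, and the 2 lowest, -0.44 and -0.43.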

How the data were processed

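Small RNA libraries were made from ventral and lateral prostate lobes with the Illumina TruSeq Small RNA kit and sequenced on a NovaSeq. The authors joined reads and removed adapters with BBMerge, counted mature miRNAs with mirDeep2 against GRCm38 and miRBase 22.1, and summed identical sequences. The deposited values are a signal, reads divided by the size factor that the authors estimated with DESeq2 within the 6 libraries of each of 8 tables. Another 8 deposited tables hold shrunken log2 fold changes and s-values of the authors and were not used. Columns that matched no group numbered 0. Libraries that the KO and A537T tables share, within a background and age, were taken as controls.

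Whole reads were recovered by dividing a column by its smallest value above 0, and 100% of values were whole within 0.001. Reads were divided by the library total times 1000000, and differences were taken on log2(RPM + 0.1). Groups were called apart where all libraries of one lay above all of the other, and the share of miRNAs placed likewise was taken among miRNAs with a mean of at least 1 RPM over the libraries compared. The liver-enriched list was tested with limma 3.58.1 (trend, mean normalised count of at least 10, pseudocount 1, Benjamini-Hochberg within a table, threshold 0.05, two-sided). edgeR 4.0.16 (TMM, quasi-likelihood) and DESeq2 1.42.0 on recovered reads were alternatives, as were another pseudocount (10), testing without a filter, a higher minimum mean (100), scaling to totals and leaving out each library. For miR-122-5p a pseudocount of 1 RPM, the size factor scale and each library left out were tried. Correlations of deviations from group means are given with no p, since miR-122-5p was selected on these values, although a permutation test had been laid out for them. Tools were scipy 1.17.1 and R 4.3.3. The scripts were checked on simulated data. The members and lists were chosen with earlier results of these data known. Named miRNAs were miR-122-5p with the arms of Mir122 and Mir122b, the 6 highest and 2 lowest by Spearman rho, and the liver-enriched list. The other marker lists were red cells, leukocytes, skeletal muscle, epithelium, stroma and smooth muscle, endothelium, and neuroendocrine and neural miRNAs.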

Additional observations from a re-analysis of the deposited data

Results flagged for a closer look

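The difference of miR-122-5p between KO and WT had opposite signs at the 2 ages. At 10 weeks every KO library lay above every WT library, with a log2 difference of 0.98. With the skeletal muscle list out of the totals it was 0.71. Of the 513 miRNAs compared, 15.2% were placed likewise. At 30 weeks every KO library lay below every WT library, at -1.59, and so placed were 14.1% of the 495 miRNAs compared. On the size factor scale of the authors the KO and WT groups of 30 weeks overlapped. Between ages KO changed by -0.02 ± 0.59 and WT by 2.55 ± 0.59 (SE, n = 3 in each group). Opposite signs were not particular to KO. A537T-TRAMP against WT-TRAMP stood at 2.34 at 10 weeks and -1.88 at 30 weeks. Its groups of 30 weeks overlapped in RPM but not on the size factor scale. A537T against WT stood at 0.27, with overlap, and -2.21. These changes between ages were not tested, since miR-122-5p was chosen on these levels.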

How the results depend on the processing

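The study's methods describe the mice as matched for age and litter. No paired analysis was possible, because the columns carry a library number and name no litter. Any pairing by litter is therefore left out of the SE values. Each of the 20 differences of miR-122-5p moved by less than the SD between libraries under a pseudocount of 1 RPM. The same held with the skeletal muscle list taken out of the totals, an alternative chosen after seeing the data. It also held for the 8 mutant differences on the size factor scale of the authors, which was not run for the others. Leaving out 1 of 3 libraries cannot move a difference by as much as that SD, so this measure is no check there. Some differences between overlapping groups changed sign. KO-TRAMP against WT-TRAMP at 30 weeks went from -0.46 to 0.22 without library 16. A537T against WT at 10 weeks went from 0.27 to -0.15 without library 35. The number of liver-enriched miRNAs called over the 8 mutant comparisons was 0, and ranged from 0 to 2 when 1 library was left out. It was 2 without library 16 and 1 without library 28, and stayed 0 under the other alternatives. The share of all miRNAs called without those libraries was not counted. Some correlations within groups changed sign. Without the 2 farthest libraries r was 0.0558 for the liver-enriched list and -0.20 for stroma and smooth muscle, against -0.18 and 0.06. With a pseudocount of 1 RPM it was -0.0095 for stroma and smooth muscle and -0.0716 for endothelium, against 0.06 and 0.0040. The cause was not tested. Depth limits the libraries with the fewest miR-122-5p reads, such as library 35 with 2.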

Other observations

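The remaining lists were set beside miR-122-5p among libraries of the same group in the same way, with no p. Pearson's r over 36 libraries was 0.07 for leukocytes (-0.04 without library 4), 0.13 for epithelium (0.03) and -0.14 for skeletal muscle (-0.06). It was 0.06 for stroma and smooth muscle (0.21 without library 4) and 0.0040 for endothelium (0.12). Spearman's rho was 0.11, 0.14, -0.17, -0.05 and 0.15 in the same order.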
